A study of Mus musculus with 18 samples.

Results

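B lineage genes were followed by maturation stage in mouse skull bone and, beside it, in cerebral cortex after ischemic injury. Of 31 genes named for this purpose, 28 were found by name among the 25918 gene names of the count table; Rag2, Vpreb2 and Igll1 were not analysed here. They were read in 4 sets: 5 precursor genes (Dntt, Rag1, Vpreb1, Vpreb3, Il7r), 10 genes of B cell identity and antigen receptor signalling (Ebf1, Pax5, Cd79a, Cd79b, Blnk, Blk, Bach2, Pou2af1, Spib, Cd24a), 8 mature B cell genes (Ms4a1, Cd22, Cd37, Cd72, Fcer2a, Cr2, Fcrla, Fcmr) and 5 plasma cell genes (Irf4, Prdm1, Jchain, Mzb1, Sdc1). Messenger RNA came from BALB/c mice in 18 libraries, 3 in each of 6 groups: skull (interparietal bone) of controls and of mice at day 2 and day 4 after injury, and cortex of controls and of mice at day 2 and day 6. The injured pieces held the ischemic region and its surroundings; no age, sex, transgene or drug is given for any group, and the way ischemia was induced is not stated. No label says that libraries came from separate mice, so a p-value here measures only the spread between libraries.

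B cells are made in bone marrow in steps. The precursor rearranges its immunoglobulin genes with the recombinase Rag1 and the template-free polymerase Dntt. It pairs its new heavy chain with a surrogate light chain that includes Vpreb1, and depends on interleukin 7 through Il7r. Ebf1 and Pax5 fix the B cell fate and switch on the receptor signalling chains Cd79a and Cd79b; a cell that passes these checks gains Ms4a1 (CD20), Fcer2a (CD23) and Cr2 (CD21), circulates, and can return to marrow. Plasma cells, the antibody secretors, lose much of this program under Prdm1 (Blimp-1) and make Jchain and Mzb1, which serve antibody assembly. Several members also have other homes: Cd24a in red cell and granulocyte precursors and in neurons, Il7r and Irf4 in other lymphocytes, Cd37, Cd72 and Blnk in myeloid cells, Sdc1 in epithelial and stromal cells, and Prdm1 in myeloid cells.

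The promoters of 6 members are shown because their genes stand for the patterns described further on: Rag1 and Vpreb3 for precursor genes, Cd79a for the antigen receptor, and Fcrla, Cr2 and Cd22 for mature genes. At day 4 Cr2 and Cd22 lay below every control and Fcrla straddled them. Each is the stretch of 250 bases before the gene's start in RefSeq on GRCm38.p6, given 5′ to 3′ on the gene's own strand. Rag1 is at chr2:101649533-101649782 on the minus strand, Vpreb3 at chr10:75948050-75948299 (plus), Cd79a at chr7:24897247-24897496 (plus), Fcrla at chr1:170927584-170927833 (minus), Cr2 at chr1:195176720-195176969 (minus) and Cd22 at chr7:30879029-30879278 (minus). Capitals mark matches to 3 motifs read on both strands: the E-protein E-box CAGGTG, the octamer ATGCAAAT that Oct factors and the coactivator Pou2af1 use, and the palindrome TCCCNNGGGA of Ebf1. In Cr2, at the first match in Cd22 and in Vpreb3 the match lies on the opposite strand and so shows the reverse complement.
Rag1: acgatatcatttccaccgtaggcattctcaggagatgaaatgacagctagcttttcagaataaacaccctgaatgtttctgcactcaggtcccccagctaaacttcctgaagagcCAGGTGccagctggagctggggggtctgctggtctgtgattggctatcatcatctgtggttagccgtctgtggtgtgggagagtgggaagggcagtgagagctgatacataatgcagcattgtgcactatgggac
Vpreb3: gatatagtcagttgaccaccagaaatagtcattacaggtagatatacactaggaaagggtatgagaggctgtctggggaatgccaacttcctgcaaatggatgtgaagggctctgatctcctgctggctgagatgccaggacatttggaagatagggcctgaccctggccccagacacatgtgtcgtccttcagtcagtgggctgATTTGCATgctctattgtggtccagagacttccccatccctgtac
Cd79a: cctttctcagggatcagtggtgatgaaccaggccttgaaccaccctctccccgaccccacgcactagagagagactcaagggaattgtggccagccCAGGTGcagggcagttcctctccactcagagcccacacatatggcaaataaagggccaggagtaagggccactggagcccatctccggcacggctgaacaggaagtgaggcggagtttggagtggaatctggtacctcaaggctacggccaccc
Fcrla: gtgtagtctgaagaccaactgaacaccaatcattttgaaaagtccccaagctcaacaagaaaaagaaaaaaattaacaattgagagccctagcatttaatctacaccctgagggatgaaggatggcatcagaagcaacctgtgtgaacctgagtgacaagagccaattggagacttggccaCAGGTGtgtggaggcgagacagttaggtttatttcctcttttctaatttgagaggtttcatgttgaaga
Cr2: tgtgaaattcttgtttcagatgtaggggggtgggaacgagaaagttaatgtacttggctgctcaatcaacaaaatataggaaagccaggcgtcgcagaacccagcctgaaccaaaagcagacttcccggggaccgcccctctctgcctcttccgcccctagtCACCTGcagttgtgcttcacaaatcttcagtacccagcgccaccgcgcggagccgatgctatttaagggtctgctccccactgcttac
Cd22: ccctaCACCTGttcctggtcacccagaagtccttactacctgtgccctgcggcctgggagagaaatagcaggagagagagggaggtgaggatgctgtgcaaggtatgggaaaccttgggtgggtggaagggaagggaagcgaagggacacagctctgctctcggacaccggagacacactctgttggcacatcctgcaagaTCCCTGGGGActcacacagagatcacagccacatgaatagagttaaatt
Promoters, here with 50 bases after the start included, were found for 23 of the 28 members. The E-box CAGGTG stood in 12 of these 23, against 22.6% of the promoters of 27025 genes: in 2 of 5 precursor genes, 2 of 7 identity and signalling genes, 6 of 7 mature genes and 2 of 4 plasma cell genes. The octamer stood in 2 members, Vpreb3 and Blnk, against 1.97% of genes, and the Ebf1 palindrome in Cd22 alone, against 1.06%. The core GAGGAAGT of PU.1 and Spi-B stood in Cd37 and Cd72, against 3.69%. The motifs were chosen after a look at these promoters, so the shares are a description and show no enrichment. Genes with the E-box in this window, such as Rag1, Fcrla and Cr2, did not share one time course in the values given next.

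The skull libraries held between 13142770 and 15445503 counts and the cortex libraries between 13005050 and 27654269. Levels are given as CPM, a gene's reads scaled by the size of its library within each tissue. Tests are edgeR's quasi-likelihood test, adjusted over all genes by Benjamini-Hochberg, and a gene counts as called when its adjusted p is under 0.05. The defining markers of B cells were present in skull, where Cd79a had 21.6, 19.9 and 18.1 CPM in the 3 controls. They were near 0 in cortex, where Cd79a had 0.544, 0.520 and 0.374 CPM in the 3 controls. Per kilobase of exon, the highest member in control skulls was Cd24a at 66.8 ± 9.07 CPM per kb, followed by Cd79a at 13.6 ± 1.20, Sdc1 at 13.6 ± 1.11, Cd37 at 11.0 ± 2.37 and Cd79b at 10.6 ± 0.416 (SD, n = 3), where Cd79a, Sdc1 and Cd37 overlapped within their SD, as did Cd37 and Cd79b. The lowest were Rag1 at 0.542 ± 0.283 and Cr2 at 0.342 ± 0.153 CPM per kb, which overlapped within their SD.

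At day 2 most B lineage members were lower in skull, with some from each of the 4 sets. Against control, 19 of the 28 members were lower and 2, the plasma cell genes Prdm1 and Sdc1, were higher, where 34.4% of all 17450 genes tested were called, 16.6% lower and 17.8% higher. The median log2 change was -2.01 over the 5 precursor genes, -2.04 over the 10 identity and signalling genes, -2.10 over the 8 mature genes and -1.32 over the 5 plasma cell genes, against -0.01 over all genes. Dntt, Rag1, Vpreb1, Vpreb3, Cr2, Fcrla and Mzb1 had day 2 libraries under the minimum of the filter on low values. They passed it through the other skull groups, so their p-values against day 2 only describe these values. In bulk tissue, fewer cells of a type and less RNA per cell cannot be told apart.

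At day 4 most members were above their day 2 level. Against day 2, 18 members were higher and 1, Sdc1, was lower, where 21.6% of all genes were called, 10.6% higher and 11.1% lower. Against control, 4 members were called, where 10.6% of all genes were called: Ms4a1 and Fcer2a were still lower (4.79% of all genes were called lower) and Prdm1 and Sdc1 were higher (5.83% called higher). The median log2 change from control was 0.49 over the precursor genes, 0.09 over the identity and signalling genes, -1.01 over the mature genes and 0.58 over the plasma cell genes, against 0.02 over all genes. The difference between the sets was not tested, and the comparisons share their libraries: both injured groups were set against the same controls.

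**Figure D1:**
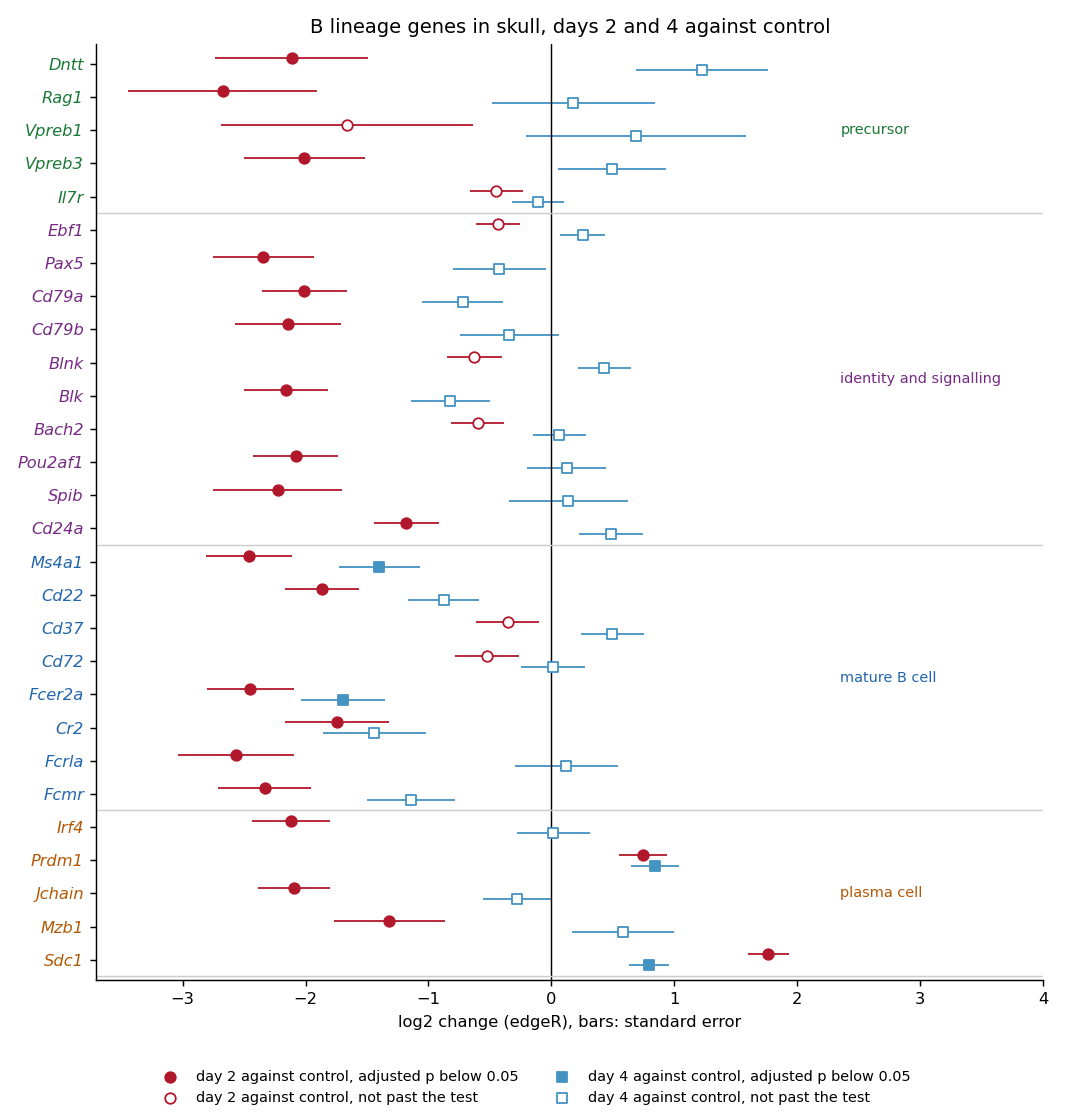
Log2 change of each of the 28 members in skull (x axis) at day 2 (red circles) and day 4 (blue squares) against control, with standard errors as bars; filled marks passed an adjusted p of 0.05, open marks did not. The day 2 marks of 19 members are filled and lie left of 0; at day 4 the filled marks are Ms4a1 and Fcer2a on the left and Prdm1 and Sdc1 on the right.

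Among the precursor genes, Dntt, which adds bases at immunoglobulin joints, had 2.82, 1.35 and 2.80 CPM in control skulls, 0.203, 0.333 and 1.05 CPM at day 2 and 3.52, 3.87 and 8.95 CPM at day 4. The 3 groups did not overlap, with day 2 lowest and day 4 highest. The log2 change was -2.11 ± 0.62 (SE) at day 2 (adjusted p = 0.0267) and 1.22 ± 0.54 at day 4 (adjusted p = 0.174), and day 4 was above day 2 by 3.34 ± 0.62 (adjusted p = 0.00588). Its mean was 22.8% of the control mean at day 2 and 234.6% at day 4, a difference from control that did not pass the test at day 4.

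Rag1, the recombinase subunit, had 5.24, 1.55 and 3.96 CPM in control skulls, 0.135, 0.932 and 0.591 CPM at day 2 and 2.18, 2.22 and 7.78 CPM at day 4. Day 2 lay below both other groups, which overlapped each other. The change was -2.67 ± 0.77 at day 2 (log2, adjusted p = 0.0257), 0.18 ± 0.66 at day 4 (adjusted p = 0.895) and 2.85 ± 0.77 from day 2 to day 4 (adjusted p = 0.0297).

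Vpreb3, whose promoter carries the octamer, had 3.63, 2.90 and 2.93 CPM in control skulls, 0.677, 0.533 and 1.12 CPM at day 2 and 3.01, 2.39 and 7.94 CPM at day 4. Day 2 was again below both other groups, by a log2 change of -2.01 ± 0.49 against control (adjusted p = 0.0116), and day 4 was 2.50 ± 0.49 above day 2 (adjusted p = 0.00711). Vpreb1 had 2.08, 0 and 1.98 CPM in control skulls, 0.135, 0.666 and 0.460 CPM at day 2 and 2.11, 1.32 and 3.11 CPM at day 4. Its control library with no read made the groups overlap and no comparison passed the test; without that library the fall at day 2 did (adjusted p = 0.00883). Reads of Vpreb1 could also be split with its near-identical copy Vpreb2, so its level is uncertain.

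Il7r, the interleukin 7 receptor chain that T lineage cells use as well, moved least of the set: 8.80, 7.96 and 7.57 CPM in control skulls, 5.15, 5.46 and 7.22 CPM at day 2 and 6.53, 6.50 and 9.57 CPM at day 4. Day 2 lay just below control without overlap, but the log2 change of -0.45 ± 0.21 did not pass the test (adjusted p = 0.131).

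Among the identity genes, Pax5, which holds cells in the B lineage, had 18.0, 14.9 and 14.9 CPM in control skulls, 2.91, 3.60 and 2.89 CPM at day 2 and 8.52, 6.26 and 20.9 CPM at day 4. Day 2 lay far below both groups, and at day 4 one library was above every control and the other two were below every control. The log2 change was -2.34 ± 0.41 at day 2 (adjusted p = 0.00281) and -0.42 ± 0.38 at day 4 (adjusted p = 0.513). Day 4 exceeded day 2 by 1.92 ± 0.41 (adjusted p = 0.0112).

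Cd79a, one signalling chain of the antigen receptor, fell to 4.00, 5.39 and 5.38 CPM at day 2, against the control values given above, and had 9.67, 6.83 and 19.6 CPM at day 4. Cd79b, the other chain, had 14.7, 14.9 and 15.8 CPM in control skulls, 2.84, 3.40 and 4.01 CPM at day 2 and 7.69, 6.42 and 21.7 CPM at day 4. Both fell together at day 2, by -2.01 ± 0.35 for Cd79a (adjusted p = 0.00251) and -2.15 ± 0.43 for Cd79b (adjusted p = 0.00569), and in both 2 of 3 day 4 libraries stayed under every control. Against day 2 they were higher at day 4 by 1.29 ± 0.34 for Cd79a (adjusted p = 0.0277) and 1.80 ± 0.43 for Cd79b (adjusted p = 0.0189).

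Pou2af1, the octamer coactivator, had 11.1, 9.78 and 11.9 CPM in control skulls, 2.78, 2.00 and 2.95 CPM at day 2 and 9.67, 7.08 and 19.0 CPM at day 4. Spib, a transcription factor of B cells and plasmacytoid dendritic cells, had 16.5, 11.8 and 16.3 CPM in control skulls, 1.90, 3.40 and 4.20 CPM at day 2 and 13.8, 6.50 and 28.7 CPM at day 4. In both, day 2 was below the other groups and day 4 straddled the controls. The falls at day 2 were -2.08 ± 0.35 for Pou2af1 (adjusted p = 0.00192) and -2.23 ± 0.52 for Spib (adjusted p = 0.0129), and the gains from day 2 to day 4 were 2.21 ± 0.35 (adjusted p = 0.00272) and 2.36 ± 0.53 (adjusted p = 0.0160).

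The Src-family kinase gene Blk had 7.12, 6.41 and 5.66 CPM in control skulls, 1.42, 1.66 and 1.18 CPM at day 2 and 3.40, 2.06 and 5.37 CPM at day 4. No day 4 library reached the lowest control, yet the day 4 change of -0.82 ± 0.32 did not pass the test (adjusted p = 0.129); the fall at day 2 was -2.16 ± 0.34 (adjusted p = 0.00144). Day 4 was above day 2 by 1.34 ± 0.34 (adjusted p = 0.0219). Cd24a, the surface protein shared with red cell and granulocyte precursors, had 197, 151 and 169 CPM in control skulls, 90.9, 75.0 and 62.4 CPM at day 2 and 260, 148 and 315 CPM at day 4. Day 2 was below both other groups, which overlapped. It fell by 1.18 ± 0.27 on the log2 scale at day 2 (adjusted p = 0.0109) and was 1.66 ± 0.27 above day 2 at day 4 (adjusted p = 0.00460).

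Ebf1, Blnk and Bach2 were the members of this set not called at day 2. Ebf1, which marrow stroma also expresses, had 71.8, 41.0 and 56.8 CPM in control skulls, 45.8, 36.9 and 42.8 CPM at day 2 and 74.7, 63.9 and 63.7 CPM at day 4. Its day 2 and control libraries overlapped. The receptor adaptor Blnk had 14.8, 8.43 and 9.75 CPM in control skulls, 7.58, 6.19 and 7.55 CPM at day 2 and 16.0, 12.3 and 16.1 CPM at day 4. The repressor Bach2 had 14.7, 9.78 and 10.0 CPM in control skulls, 8.80, 6.52 and 7.42 CPM at day 2 and 11.4, 10.0 and 14.6 CPM at day 4. In Blnk and Bach2 every day 2 library was below every control, and day 4 overlapped with control. The day 2 changes of -0.43 ± 0.18 for Ebf1, -0.63 ± 0.22 for Blnk and -0.60 ± 0.22 for Bach2 missed the threshold, with adjusted p of 0.0933, 0.0518 and 0.0555. Without control replicate 2, the library with no Vpreb1 read, all 3 passed, with adjusted p of 0.00508, 0.0162 and 0.0348. Against day 2, day 4 was higher in Ebf1 by 0.69 ± 0.18 (adjusted p = 0.0268) and in Blnk by 1.06 ± 0.22 (adjusted p = 0.00940).

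**Figure D2:**
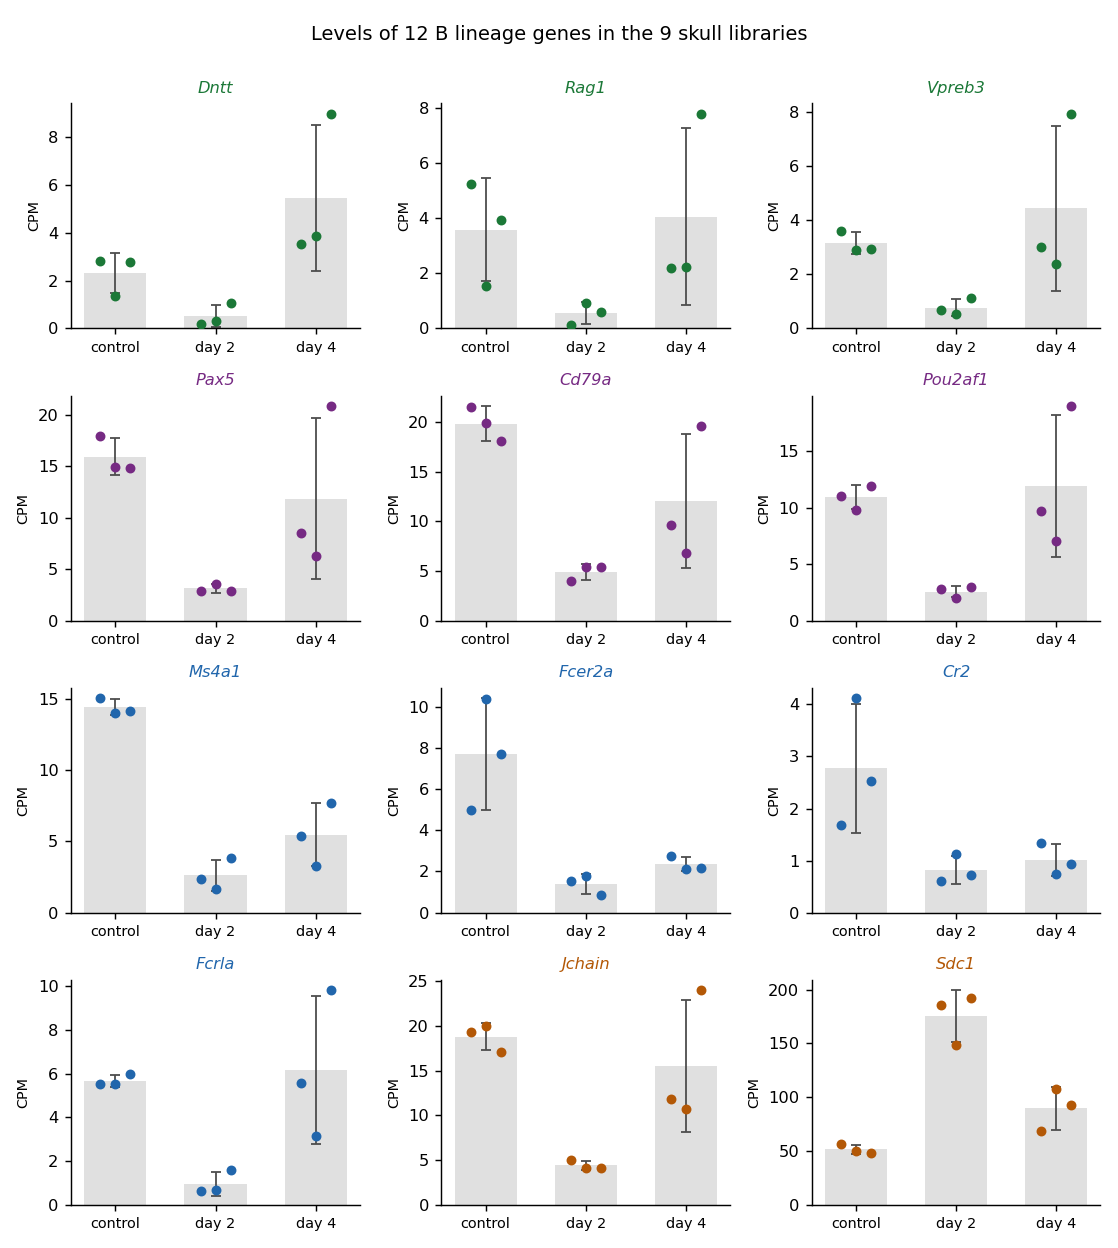
Level in CPM (y axis, from 0) of 12 members in the 9 skull libraries, with control, day 2 and day 4 on the x axis; dots are libraries, grey bars means and whiskers SD (n = 3). Day 2 is lowest in every panel but Sdc1, and at day 4 Ms4a1, Fcer2a and Cr2 stay under every control while Dntt lies above every control.

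Of the 28 members, 2 were still called lower at day 4, where 4.79% of all genes were. A count this small is near that share. Both genes, Ms4a1 and Fcer2a, were in the mature set, and neither call held with each library left out. Ms4a1, the CD20 antigen, had 15.04, 14.03 and 14.18 CPM in control skulls, 2.37, 1.66 and 3.81 CPM at day 2 and 5.38, 3.29 and 7.70 CPM at day 4. Both injured groups lay below every control and overlapped each other. The log2 change was -2.46 ± 0.35 at day 2 (adjusted p = 8.80e-04) and -1.40 ± 0.33 at day 4 (adjusted p = 0.0300), so that its mean was 18.1% of the control mean at day 2 and 37.9% at day 4.

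Fcer2a, the low-affinity IgE receptor of follicular B cells, had 4.97, 10.4 and 7.71 CPM in control skulls, 1.56, 1.80 and 0.854 CPM at day 2 and 2.75, 2.14 and 2.18 CPM at day 4. Every day 4 library was above every day 2 library and below every control. The change was -2.45 ± 0.35 at day 2 (log2, adjusted p = 9.51e-04) and -1.70 ± 0.34 at day 4 (adjusted p = 0.0192). Day 4 against day 2 did not pass the test, at 0.75 ± 0.36 (adjusted p = 0.166).

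Cr2, the complement receptor CD21, had 1.68, 4.12 and 2.52 CPM in control skulls, 0.609, 1.13 and 0.722 CPM at day 2 and 1.35, 0.741 and 0.934 CPM at day 4. Fcmr, the Fc receptor for IgM, had 3.16, 6.61 and 5.46 CPM in control skulls, 1.02, 0.999 and 0.985 CPM at day 2 and 1.35, 2.63 and 2.96 CPM at day 4. Cd22, an inhibitory receptor that binds sialic acid, had 6.98, 9.58 and 8.73 CPM in control skulls, 1.69, 2.20 and 3.02 CPM at day 2 and 4.16, 3.29 and 6.30 CPM at day 4. In all 3 genes both injured groups lay below every control library. They passed the test at day 2, by -1.74 ± 0.43 for Cr2 (adjusted p = 0.0115), -2.33 ± 0.38 for Fcmr (adjusted p = 0.00163) and -1.87 ± 0.30 for Cd22 (adjusted p = 0.00162). At day 4 the changes of -1.44 ± 0.42, -1.14 ± 0.36 and -0.88 ± 0.29 missed it, with adjusted p of 0.0563, 0.0691 and 0.0826; DESeq2 called all 3, with adjusted p of 0.0378, 0.0396 and 0.0377.

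Fcrla, an Fc receptor-like protein kept inside B cells, had 5.51, 5.53 and 6.00 CPM in control skulls, 0.609, 0.666 and 1.58 CPM at day 2 and 5.57, 3.13 and 9.81 CPM at day 4, so that day 4 straddled the controls. Its fall at day 2 was -2.57 ± 0.47 (log2, adjusted p = 0.00300) and its gain from day 2 to day 4 was 2.69 ± 0.47 (adjusted p = 0.00442), while day 4 differed from control by 0.12 ± 0.42 (adjusted p = 0.887). Cd37 and Cd72, which macrophages also express, were not called against control on either day, with adjusted p between 0.146 and 0.983. Cd37 had 31.6, 48.0 and 37.0 CPM in control skulls, 35.5, 29.5 and 26.1 CPM at day 2 and 43.1, 43.4 and 78.0 CPM at day 4, so that every day 4 library was above every day 2 library (log2 0.85 ± 0.26, adjusted p = 0.0483). Cd72 had 17.9, 19.1 and 20.4 CPM in control skulls, 10.2, 13.1 and 16.5 CPM at day 2 and 16.8, 13.5 and 27.6 CPM at day 4, with day 2 below control and day 4 overlapping both groups.

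Immunoglobulin constant region genes were read beside the members and were not part of their list. Ighm, the constant region of IgM, which immature and mature B cells carry, had 122, 91.4 and 112 CPM in control skulls, 26.3, 22.6 and 31.1 CPM at day 2 and 92.9, 64.9 and 148 CPM at day 4. Ighd, the constant region of IgD, which appears as B cells mature, had 13.8, 24.1 and 15.2 CPM in control skulls, 3.72, 4.39 and 3.68 CPM at day 2 and 7.43, 4.94 and 10.0 CPM at day 4. Ighm at day 4 straddled the controls, with a log2 change of -0.09 ± 0.28 (adjusted p = 0.870), while Ighd stayed under every control, with a change of -1.24 ± 0.28 (adjusted p = 0.0259). Of 5 such genes tested, 4 were lower at day 2 (Ighm, Ighd, Igha and Igkc, the kappa light chain), where 16.6% of all genes were called lower. At day 4 against control 1, Ighd, was lower (4.79% of all genes), and 4 were higher at day 4 than at day 2 (10.6% of all genes).

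**Figure D3:**
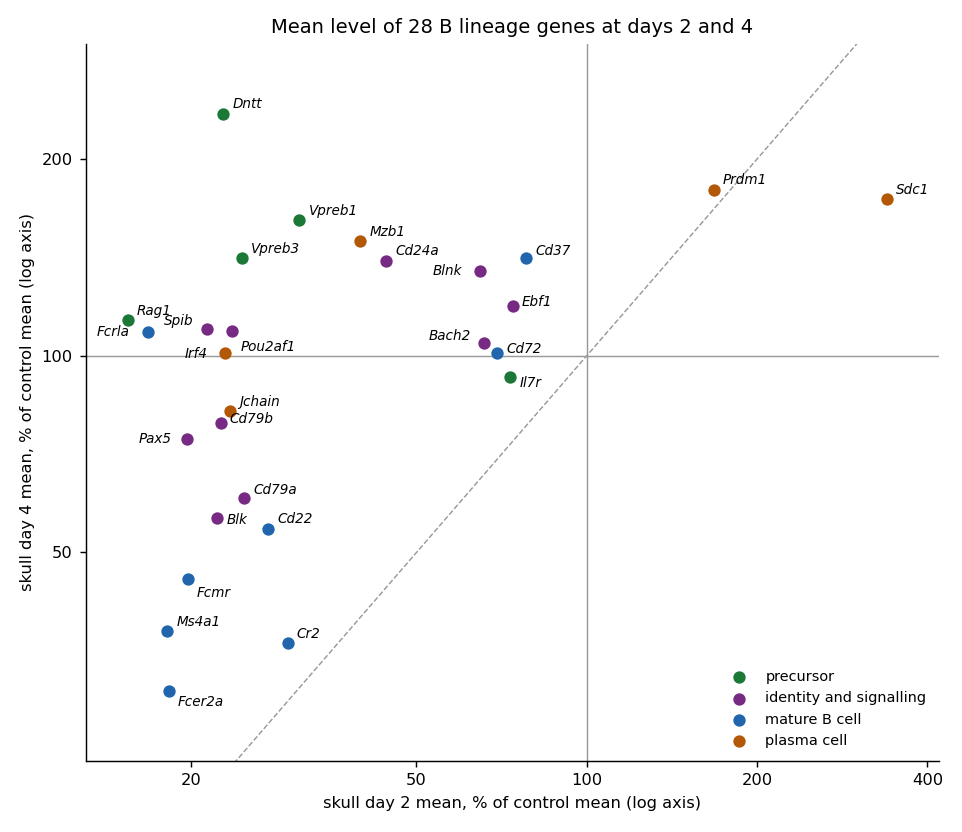
Mean level of each of the 28 members in skull as a percent of the control mean, at day 2 (x axis) and day 4 (y axis), both on log axes and coloured by set; grey lines mark 100% and the dashed line equal values. Dntt sits at 22.8% and 234.6%, Rag1 at 15.4% and 113.4%, while the mature genes Ms4a1, Fcer2a, Cr2 and Fcmr sit under 50% on both axes.

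The plasma cell genes did not move as a set. Jchain, which joins IgM and IgA into polymers, had 19.34, 19.97 and 17.12 CPM in control skulls, 5.01, 4.06 and 4.14 CPM at day 2 and 11.79, 10.70 and 23.97 CPM at day 4. Irf4, a transcription factor of plasma cells and activated lymphocytes, had 6.31, 6.07 and 6.21 CPM in control skulls, 1.08, 1.86 and 1.31 CPM at day 2 and 6.66, 3.79 and 8.33 CPM at day 4. Both fell with the B cell genes, by -2.09 ± 0.29 for Jchain (adjusted p = 8.75e-04) and -2.12 ± 0.32 for Irf4 (adjusted p = 0.00120), and at day 4 both straddled the controls. Mzb1, a chaperone of antibody assembly, had 2.08, 1.62 and 1.98 CPM in control skulls, 0.474, 0.999 and 0.788 CPM at day 2 and 2.50, 1.48 and 4.51 CPM at day 4. Its day 2 libraries lay below every control, by -1.32 ± 0.45 (adjusted p = 0.0461). Against day 2, day 4 was higher by 1.81 ± 0.29 for Jchain (adjusted p = 0.00306), 2.13 ± 0.32 for Irf4 (adjusted p = 0.00217) and 1.90 ± 0.45 for Mzb1 (adjusted p = 0.0155).

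Sdc1 (CD138) went the other way, with 56.5, 50.1 and 48.6 CPM in control skulls, 186, 148 and 192 CPM at day 2 and 68.6, 108 and 93.0 CPM at day 4. The 3 groups did not overlap, with day 2 highest. The log2 change was 1.76 ± 0.17 at day 2 (adjusted p = 1.73e-04) and 0.80 ± 0.16 at day 4 (adjusted p = 0.0208), and day 4 was below day 2 by -0.97 ± 0.16 (adjusted p = 0.00396). Prdm1, the Blimp-1 repressor, had 8.73, 12.4 and 9.55 CPM in control skulls, 17.9, 13.9 and 19.7 CPM at day 2 and 16.5, 22.1 and 16.6 CPM at day 4, above every control on both days. Its changes were 0.75 ± 0.19 at day 2 (adjusted p = 0.0147) and 0.84 ± 0.19 at day 4 (adjusted p = 0.0270). Within this set of 5, Jchain, Irf4 and Mzb1 were lower at day 2 in the same libraries in which Sdc1 and Prdm1 were higher.

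Many calls were lost when a single library was left out: 4 of 21 at day 2 against control, 4 of 4 at day 4 against control and 9 of 19 at day 4 against day 2. At day 2, the calls for Dntt, Rag1, Mzb1 and Prdm1 were lost when one of certain libraries was left out. For Dntt these were control replicates 1 and 3 and day 2 replicates 1 and 2 (adjusted p up to 0.0876), for Rag1 control replicates 1 and 3 and day 2 replicates 1 and 3 (up to 0.0736), and for Prdm1 control replicate 3 and day 2 replicate 3 (up to 0.0609). Mzb1 lost its call without any of 5 libraries, all but control replicate 2 (up to 0.142). All 4 calls at day 4 against control were lost without control replicate 3, without day 4 replicate 2 or without day 4 replicate 3. In the first 2 of these fits 0 members were called. Day 4 replicate 3 was the highest day 4 library in 23 of the 28 members. Without it, 12 members in place of 19 differed from day 2. The 3 members then called at day 4 against control were others, Pax5, Cd79a and Cd79b, all lower, with adjusted p of 0.0494, 0.0420 and 0.0436. Without day 2 replicate 1, 10 members differed between day 4 and day 2. Calls over all genes moved as well with a library left out, so these losses were not of the members alone. They ran from 10 to 2537 at day 4 against control, where all libraries gave 1853. At day 4 against day 2 they ran from 2260 to 3057, where all libraries gave 3772. Calls of day 4 against day 2 lost when some single library was left out were those of Rag1, Ebf1, Cd79a, Cd79b, Blk, Spib, Cd22, Cd37 and Mzb1. Ebf1 lost its call whichever of the 6 libraries was left out (adjusted p from 0.0507 to 0.0912). Such a fit has fewer libraries in a group, so a call near the threshold can be lost without resting on a particular library.

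The balance of stages within a library was read as the log2 ratio of the summed CPM of the 5 precursor genes to that of the 8 mature genes. It was -1.94, -3.09 and -2.41 in control skulls, -3.09, -2.69 and -2.36 at day 2 and -2.21, -2.15 and -1.86 at day 4, and the 3 groups overlapped. Il7r and Cd37, the most abundant genes of their sets and not confined to B cells, weigh most in it. Without these 2 genes the ratio was -2.004, -3.58 and -2.48 in control skulls, -3.97, -3.13 and -3.10 at day 2 and -1.79, -1.55 and -1.05 at day 4, where every day 4 library was above every control. The ratio was made from the genes already described and carries no test.

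Of 18 receptor signalling genes outside the member list, 5 were lower and 2 higher at day 2 against control, with a median log2 change of -0.01, the same as over all genes, of which 16.6% were called lower and 17.8% higher. Those lower included the kinase Prkcb, at -1.23 ± 0.18 (adjusted p = 8.92e-04), the scaffold Bank1 and Rasgrp3. The kinase Lyn and the adaptor Bcl10 were higher. At day 4 against control 9 were higher and 0 lower (all genes 5.83% and 4.79%), among them Lyn, Plcg2 and the phosphatase Inpp5d, which work in myeloid cells too. At day 4 against day 2, 9 were higher and 0 lower (all genes 10.6% and 11.1%).

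Of 14 transcription factors of early lymphoid cells, 2 were lower at day 2 and 1 higher, a smaller share than the 34.4% called over all genes. Ikzf3 (Aiolos), a factor of maturing B cells, had 6.85, 9.31 and 6.96 CPM in control skulls, 1.08, 2.33 and 2.30 CPM at day 2 and 4.100, 2.799 and 4.280 CPM at day 4. Bcl11a, needed for the earliest B cells, had 8.46, 4.59 and 7.37 CPM in control skulls, 2.23, 2.40 and 1.97 CPM at day 2 and 7.30, 5.76 and 7.94 CPM at day 4. Ikzf3 stayed below every control at day 4 (log2 -1.04 ± 0.31, adjusted p = 0.0571), whereas Bcl11a overlapped with control there (0.04 ± 0.25, adjusted p = 0.936). At day 4 against control, where 10.6% of all genes were called, 4 of the 14 were higher and 0 lower: Myb, a factor of blood progenitors, by 1.47 ± 0.25 (adjusted p = 0.0130), Sox4, Runx1 and Spi1. At day 4 against day 2, where 21.6% of all genes were called, 7 were higher and 1, Runx1, was lower.

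Of 14 niche and survival genes tested, Cxcl12, the stromal chemokine that holds B cell precursors in marrow, was higher on both days. It had 375, 301 and 356 CPM in control skulls, 723, 706 and 725 CPM at day 2 and 541, 477 and 622 CPM at day 4. The groups did not overlap, and the change was 1.06 ± 0.11 at day 2 (log2, adjusted p = 2.67e-04) and 0.67 ± 0.11 at day 4 (adjusted p = 0.0130). The gene Tnfrsf13c, which encodes the BAFF receptor of mature B cells, was lower at day 2 by -3.01 ± 0.40 (adjusted p = 6.60e-04), with 0.677, 0.333 and 0.394 CPM at day 2 against 3.69, 4.25 and 3.55 CPM in control skulls. Its day 2 libraries were under the filter's minimum, so it too passed through the other groups and its p is a description. Flt3l was the other gene lower at day 2, so that 3 of 14 were called, where 34.4% of all genes were. At day 4 against control (10.6% of all genes called) 4 were higher and 0 lower (Cxcl12, its receptor Cxcr4, Tnfsf13b, which encodes BAFF, and Stat5a), and at day 4 against day 2 (21.6% called) 7 were higher and 1, Cxcl12, was lower. Il7, the cytokine read by Il7r, was not called, with 0.15 ± 0.25 at day 2 (adjusted p = 0.665).

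Genes of other cells were read in the same libraries, where 16.6% of all genes were called lower and 17.8% higher at day 2 against control. At day 4 against control these shares were 4.79% and 5.83%. In lists this short, 2 genes called at day 2 are little above those shares. T cell markers were lower in 5 of 9 tested and NK cell markers in 3 of 4 at day 2, with summed levels of 52.0 to 58.3 CPM at day 2 against 62.4 to 66.6 CPM in control skulls for T cells, and of 2.37 to 3.28 CPM against 6.88 to 7.84 CPM for NK cells. Most of the T cell sum was Tcf7, with a mean of 42.6 CPM at day 2. The median log2 change over the 9 T cell genes was -1.11 at day 2. Red cell markers summed to 1826 to 10820 CPM at day 2 against 15103 to 20106 CPM in control skulls, with 2 of 9 called lower. Proliferation genes were higher in 10 of 10, with sums of 850 to 1057 CPM at day 2 against 304 to 422 CPM in control skulls. Granulocyte precursor markers were higher in 0 of 8 at day 2 and in 6 of 8 at day 4, with sums of 578 to 1113 CPM in control skulls, 916 to 1299 CPM at day 2 and 2044 to 4130 CPM at day 4. Mature neutrophil markers were higher in 2 of 7 at day 2 and 6 of 7 at day 4, and osteoblast markers in 2 of 6 and 4 of 6. Plasmacytoid dendritic cells also express Spib, and of 5 of their markers 2 were lower and 1 higher at day 2. Monocyte and macrophage markers gave 2 higher and 2 lower of 7 at day 2 and 4 higher at day 4, and 0 of 5 stroma and endothelium markers were called on either day. Neuron markers were lower in 5 of 5 on both days, with sums of 444 to 507 CPM in control skulls, 31.8 to 120 CPM at day 2 and 67.8 to 93.8 CPM at day 4, and choroid plexus markers ran from 403 to 8116 CPM within the day 2 group. The part of these other cells in the B lineage values was not tested. A fit without the 3714 genes at least 4-fold higher in control cortex than in control skull called 23 members at day 2 against control and 4 at day 4. It took out 0 members and left their reads as they were, so it cannot show that part.

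**Figure D4:**
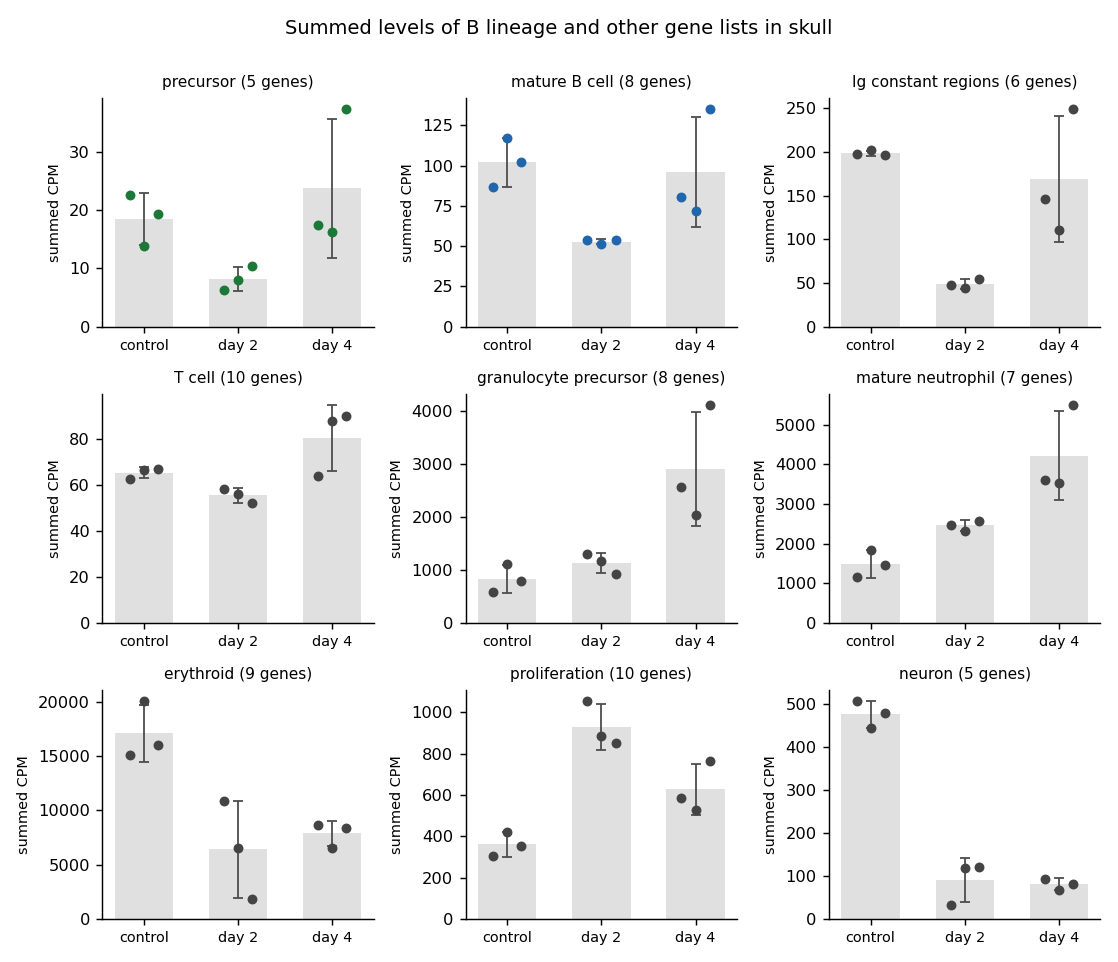
Summed CPM (y axis, from 0) of 9 gene lists in the 9 skull libraries, by control, day 2 and day 4; dots are libraries, grey bars means and whiskers SD (n = 3). Precursor, mature B cell and immunoglobulin sums are lowest at day 2, granulocyte precursor and neutrophil sums are highest at day 4, proliferation is highest at day 2 and neuron sums are high in controls alone.

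In cortex, 15 of the 28 members had enough reads to be tested, since the others were near 0 in all groups. At day 2, 7 of these 15 were higher than control and 1, Bach2, was lower, where 24.7% of 18151 genes were called, 14.7% higher and 9.99% lower. At day 6, 6 were higher (Il7r, Blnk, Cd22, Cd37, Cd72 and Sdc1) and 0 lower, where 10.3% of genes were called, 7.93% higher and 2.38% lower. Members that passed the filter only through the injured groups had to differ, so these counts describe the 15 alone.

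Cd22 had 0.0837, 0 and 0.0416 CPM in control cortex, 0.996, 1.23 and 0.970 CPM at day 2 and 3.19, 10.8 and 5.89 CPM at day 6. The groups did not overlap, with day 6 highest. The gene passed the filter on low values through the injured groups alone, with 3 reads in all in the controls, so its values are a description and no p is given. The ratio of scaled reads was 26.7 at day 2 and 173 at day 6, with exact 95% intervals of 8.69 to 133 and 58.7 to 842 that cover counting error only. Cd72, an inhibitory coreceptor, had 0.209, 1.11 and 1.25 CPM in control cortex, 7.97, 12.2 and 14.8 CPM at day 2 and 3.91, 11.7 and 8.88 CPM at day 6. The fitted log2 changes were 3.75 ± 0.56 and 3.23 ± 0.56. Its control replicate 1, with 5 reads, was under the filter's minimum. Cd72 too passed through the injured groups, so its changes are a description and no p is given.

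Cd37 had 4.02, 2.79 and 4.49 CPM in control cortex, 8.58, 12.6 and 10.6 CPM at day 2 and 11.1, 26.9 and 19.3 CPM at day 6. Il7r had 1.09, 1.41 and 1.29 CPM in control cortex, 2.88, 4.81 and 4.79 CPM at day 2 and 3.65, 11.6 and 5.49 CPM at day 6. Every injured library was above every control in both genes, with day 6 changes of 2.34 ± 0.31 for Cd37 (adjusted p = 5.35e-04) and 2.45 ± 0.40 for Il7r (adjusted p = 0.00157). Sdc1, at 0.837, 1.34 and 2.08 CPM in control cortex, had 3.76, 10.0 and 5.60 CPM at day 2 and 3.96, 6.04 and 6.70 CPM at day 6, so that it was higher in both tissues (log2 2.19 ± 0.40 at day 2 in cortex, adjusted p = 0.00159). Cd24a was higher at day 2, by 0.92 ± 0.22 (adjusted p = 0.00819), and did not pass the test at day 6, at 0.34 ± 0.23 (adjusted p = 0.401). Blnk, at 0.98 ± 0.30 at day 2 (adjusted p = 0.0314), lost its call without any of 5 libraries, and Bach2, at -0.59 ± 0.18 (adjusted p = 0.0289), without any control library or without day 2 replicate 2. At day 6 Blnk, at 1.24 ± 0.30 (adjusted p = 0.0206), lost its call without control replicate 1 or 3 or day 6 replicate 2 or 3.

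The genes that define B cells stayed near 0 in cortex, though some were above every control at day 2 on few reads. Cd79a had 0.544, 0.520 and 0.374 CPM in control cortex, 0.111, 0.0512 and 0.700 CPM at day 2 and 1.59, 0.229 and 0.404 CPM at day 6, with the groups overlapping. Pax5 had 0.251, 0.186 and 0.333 CPM in control cortex, 0.166, 0.205 and 0.162 CPM at day 2 and 0, 0.0457 and 0.161 CPM at day 6, which are at most 8 reads a library. Its day 6 libraries were below every control, and the gene had too few reads to be tested. Ms4a1 had at most 5 reads in any cortex library. Monocyte and macrophage markers were higher in 6 of 7 on both days, with sums of 107 to 125 CPM in control cortex, 417 to 608 CPM at day 2 and 682 to 2124 CPM at day 6. Within the day 6 group replicate 2 was the highest library for that sum, but also for 19 of the 28 members. These included Cd22, Cd37, Cd72, Blnk and Il7r and, on few reads, Cd79b, Pou2af1 and Spib. The part of monocytes and macrophages in the rise of Cd22, Cd72, Cd37 and Blnk was not tested.

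**Figure D5:**
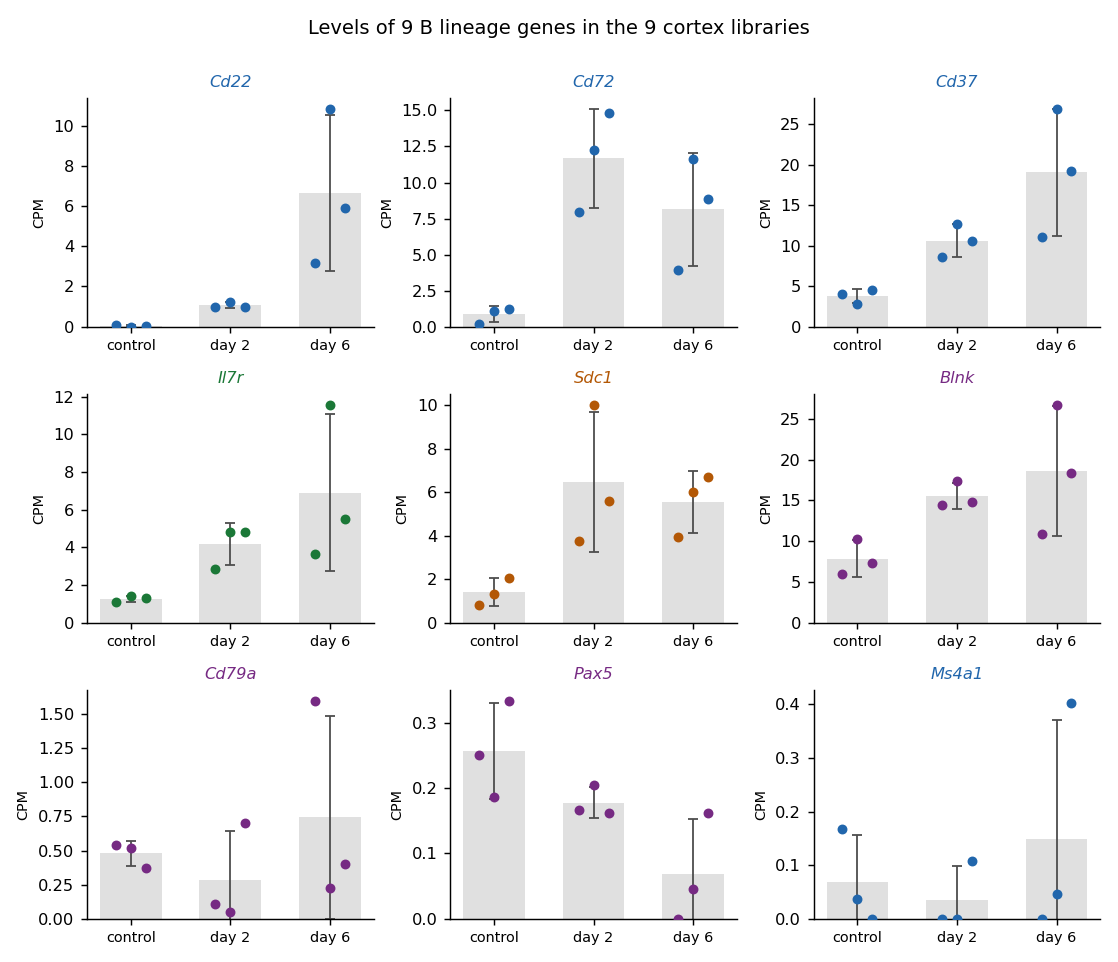
Level in CPM (y axis, from 0, each panel on its own scale) of 9 members in the 9 cortex libraries, by control, day 2 and day 6; dots are libraries, grey bars means and whiskers SD (n = 3), with the lower whisker ending at 0 where it would pass below. Cd22, Cd72, Cd37, Il7r and Sdc1 are above every control on both days, whereas Cd79a, Pax5 and Ms4a1 stay under 1.6 CPM in every library.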

How the data were processed

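Messenger RNA of 9 skull and 9 cortex libraries was sequenced. Extraction used TRIzol and DNase, and poly(A) RNA was read as Illumina pairs after NEBNext preparation, per the labels' protocols. Per the submitters' processing notes, HISAT2 2.1.0 and the build mm10 were used; how reads were counted, and whether by strand, is not given in the sources used here. Raw read counts per gene, not normalized, stand in the deposited table. Of its 26783 lines, 865 surplus identical copies of 49 names were removed.

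Each tissue was fitted over its 9 libraries with edgeR 4.0.16 (R 4.3.3): filterByExpr, TMM factors, robust quasi-likelihood, two-sided tests, Benjamini-Hochberg adjustment over all genes. The difference of day 2 responses between tissues was an interaction over 12 libraries. The prior count of the fitted log2 changes was 0.125. CPM per kb uses merged exon length in GENCODE M21. The procedure was tested on simulated data. Members, lists, tests and most alternatives were chosen with earlier results of these data known, and the motifs after a look at these promoters. Some genes of the lists are not reported here. Genes named are the members, up to 3 genes of a pathway list with the smallest adjusted p in a comparison, those going against their list and, chosen after their values were seen, Bank1, Rasgrp3, Spi1, Stat5a, Igha and Il7. Alternatives were RLE factors, no filter, a stricter filter (1 CPM in 3 libraries), DESeq2 1.42.0, limma 3.58.1 voom, a replicate block, library sizes computed without haemoglobin or the 20 genes with most reads, each library left out, and, added after seeing the data, a fit without genes high in cortex.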

Additional observations from a re-analysis of the deposited data

Results flagged for a closer look

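The day 2 response (log2 change against control) differed between cortex and skull, by an interaction test in edgeR with Benjamini-Hochberg adjustment, for 15 of the 28 members, all with the cortex response above the skull response; 17.6% of 18863 genes tested were called, 14% higher and 3.6% lower in cortex, and the median over all genes was 0.20. Members with more than 200 cortex reads in the day 2 group were Cd72, at 4.33 ± 0.57 (SE), Il7r, at 2.22 ± 0.34, Cd24a, at 2.16 ± 0.32, Cd37, at 1.91 ± 0.30, and Blnk, at 1.67 ± 0.35. Cd22, at 6.43 ± 0.62, had 60 reads at day 2 against 3 in control cortex. Jchain, at 2.27, and Irf4, at 2.45, had 65 and 41 cortex reads at day 2 against 79 and 45 in controls, and both fell in skull. The others had 28 cortex reads or fewer in each group, were not testable in cortex alone and entered this fit through their skull libraries, where controls were high. Their difference therefore joins the fall in skull to a ratio of few cortex reads and is no test of cortex. Its fitted size depends on the prior count: Rag1 at 5.04, Fcrla at 4.87, Cd79b at 4.73, Blk at 3.70, Spib at 3.33, Pou2af1 at 2.79 and Pax5 at 1.90. In that order, cortex reads at day 2 against controls were 20 against 5, 5 against 1, 28 against 6, 7 against 3, 16 against 10, 12 against 10 and 10 against 19. The calls for Blk, Fcrla and Pax5 were lost without single libraries, with adjusted p up to 0.139 for Blk, 0.306 for Fcrla and 0.101 for Pax5.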

How the results depend on the processing

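The count of members called at day 2 in skull ran from 17 to 25 over all alternatives, and 17 of the 21 calls held under every one of them. With a library left out, 4024 to 6508 of all genes were called in that comparison. At day 4 against control 0 of 4 held: 7 members were called with DESeq2, 2 with a replicate block and 0 to 4 with a library left out. Over all genes that comparison gave 2834 calls with DESeq2, 765 with the block, 1073 without genes at least 4-fold higher in control cortex, a fit added after seeing the data, and 10 to 2537 with a library left out. Day 4 against day 2 kept 10 of 19 calls, with 10 to 19 members and 2260 to 3057 genes called with a library left out. Without a library, 1005 to 2091 genes were called in cortex at day 6 and 2185 to 3978 for the difference of responses; 5 of 6 and 12 of 15 members held there, and 6 of 8 in cortex at day 2. The precursor to mature ratio at day 4 exceeded control by 0.41, or by 1.08 as a mean of log2 CPM and 1.22 without Il7r and Cd37; against day 2 it was 0.64, or 1.94 without them. The cause of these shifts was not tested. No called member changed direction in any fit; uncalled members changed sign in 61 of 1008 fits. Same-numbered skull libraries deviated together in some pairs and apart in others. Correlations were 0.107, 0.0142 and 0.13 between control and day 2, 0.146, 0.156 and -0.0575 between control and day 4, and -0.464, -0.124 and -0.255 between day 2 and day 4. So few correlations cannot settle whether the numbers pair the libraries, and the block is given here alone. It called 22 members at day 2. At this depth 1 count is near 0.07 CPM in skull, and members under 1 CPM rest on few reads.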
